A study of Bos taurus with 21 samples.

Results

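The chaperones and folding enzymes of the endoplasmic reticulum (ER) were followed in RNA-seq counts of somatic cells from the milk of 21 Holstein cows. The 10 genes were listed by symbol (HSPA5, HSP90B1, CALR, CANX, PDIA3, PDIA4, PDIA6, DNAJB9, HERPUD1 and XBP1), and all 10 were found among the 13570 gene rows of the count tables. All 10 had at least 10 counts in every cow, as had 7146 genes in total. The cows formed a high yielding group (HY, 9 cows) and a low yielding group (LY, 12 cows), defined on a national production index from which a breeding value of milk yield was also taken. No unit is given for this value, which lay between 181 and 468 in the HY cows and between -404 and 86.9 in the LY cows. No cow received a treatment. HY cows were sampled 41 to 268 days into lactation (median 168) and LY cows 52 to 270 days (median 211.5), and parity was 2 to 4 in both groups. Each cow gave 1 library, so the cow is the replicate throughout.

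The ER is where secreted and membrane proteins are folded. HSPA5 (BiP) and HSP90B1 (GRP94) hold unfolded chains, calreticulin and calnexin hold glycoproteins by their sugars, and protein disulfide isomerases form and exchange disulfide bonds. When unfolded protein accumulates, the unfolded protein response (UPR) raises many of these genes, partly through the transcription factor XBP1. In the lactating udder, the secretory epithelial cell makes caseins and whey proteins in large amounts, and plasma cells and other leukocytes of milk also carry an ER. Milk somatic cells are a mixture of leukocytes and shed epithelial cells.

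A library held between 7878557 and 28541904 counts on genes. The share of counts on the 4 casein genes CSN1S1, CSN1S2, CSN2 and CSN3 served as a measure of milk protein RNA in each library. It ranged from 0.0876% in HY cow 3235 to 44.2% in HY cow 3262, with a median of 9.27%, and was under 1% in 4 cows (HY 3235, 2814 and 3057, and LY 7643). Marker genes of several cell types were detected in the libraries. Levels are given as CPM, counts scaled to a common library total with the TMM factors described below. The summed CPM were 2359 to 13907 for the 8 neutrophil markers, 1775 to 9705 for the 12 macrophage markers, 40.1 to 4847 for the 12 mammary epithelial markers, 59.9 to 1544 for the 11 T cell markers and 50.7 to 999 for the 11 B and plasma cell markers. The 4 red blood cell markers reached at most 0.875 CPM. The scaling factors of the trimmed mean of M-values (TMM) were lowest in the 2 cows with the highest casein shares, 0.460 in HY 3262 and 0.498 in HY 3280. Their values are therefore given with and without them where a result rests on them.

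The first question was whether genes of the ER folding machinery follow the amount of casein RNA. All 10 genes had a negative slope on casein share, and 5 of them (PDIA4, CALR, HERPUD1, HSPA5 and PDIA6) fell as casein share increased, at an adjusted p under 0.05. Of all 12333 genes tested, 9.71% fell and 10.3% rose, 20.1% in all, and 51% had a negative slope. This background includes genes counted in as few as 1 cow, unlike the 10 members. A fit limited to the 7146 better counted genes is a closer background, and there 966 genes fell and 977 rose. In that fit 4 of the 10 members fell, and PDIA6 did not pass (adjusted p = 0.0575). The median slope of the 10 genes was -0.0871 log2 units per doubling of casein share, against -0.00301 over all genes. Slopes are log2 changes per doubling of casein share, and the observed range of shares spanned 8.98 doublings. Over that range the fitted decrease was 3.11-fold for PDIA4, 2.59-fold for CALR, 2.23-fold for HERPUD1, 1.80-fold for HSPA5 and 1.64-fold for PDIA6. The negative sign held for all 10 genes with other size factors, with milk protein genes left out of the totals and with DESeq2. It also held in the joint fit, with lactation period and milk yield as further covariates. The count of 5 was not stable to the count minimum, the scaling, the scale of casein share, the cows or the covariates. HSPA5 and PDIA6 lost the call with RLE size factors (adjusted p = 0.0672 and 0.0740), with milk protein genes left out of the totals (0.0529 and 0.0595), and in the joint fit (0.0605 and 0.0648), each of which left 3. With casein share in linear percent only HERPUD1 passed, with CALR at an adjusted p of 0.0559 and PDIA4 at 0.0561. The count became 0 without the 4 cows under 1% casein, which also narrowed the range of shares. It was 0 too when the summed macrophage marker level entered the fit. Levels are TMM-scaled CPM, and since transcript lengths were not used here, they compare a gene between cows but not one gene with another.

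**Figure D1:**
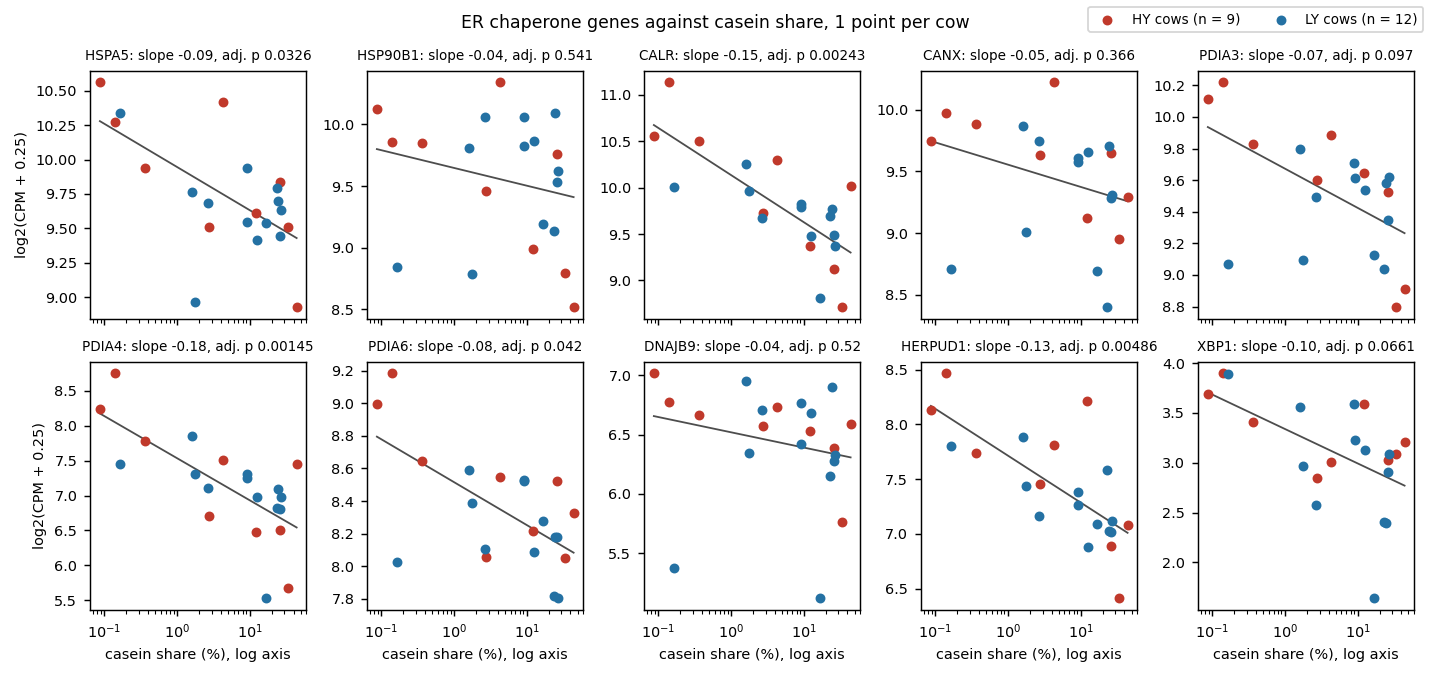
Level of each of the 10 genes, as log2(CPM + 0.25) on the y axis, against casein share in percent on a logarithmic x axis, with 1 point per cow (9 HY in red, 12 LY in blue). The line has the slope fitted by edgeR and passes through the mean log2 level and mean log2 share. All 10 lines slope downward, most steeply for PDIA4 (-0.18), and the 4 cows at the far left carry casein shares under 1%.

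Among the general chaperones, HSPA5, the ER Hsp70 that also keeps the UPR sensors inactive, was at 486, 914 and 1515 CPM (lowest, median and highest) in HY. In LY these values were 499, 809 and 1294 CPM. The highest level was in HY 3235, the cow with the least casein, and the lowest in HY 3262, the cow with the most. Not every cow followed this order, with 499 CPM in LY 3161 (casein 1.76%) and 1367 CPM in HY 3064 (casein 4.34%). HSPA5 fell by 0.0947 log2 units per doubling of casein share (SE 0.0311, adjusted p = 0.0326). DNAJB9, an Hsp40 co-chaperone that works with HSPA5, was at 54.2, 96.1 and 129 CPM in HY and at 34.6, 83.1 and 123 CPM in LY. Its slope of -0.0387 (SE 0.0368) did not pass the test (adjusted p = 0.520). DNAJB9 was low in 3 cows of very different casein share, LY 2893 (34.6 CPM, casein 17.0%), LY 7643 (41.4 CPM, casein 0.164%) and HY 3280 (54.2 CPM, casein 33.6%). HSP90B1, the ER Hsp90, was at 366, 868 and 1301 CPM in HY and at 442, 841 and 1089 CPM in LY. Its slope was -0.0434 (SE 0.0432, adjusted p = 0.541, 95% interval -0.134 to 0.0469). The highest HSP90B1 level was in HY 3064, at a casein share of 4.34%.

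Among the genes of the glycoprotein folding cycle, CALR, which encodes the soluble lectin calreticulin, was at 419, 1036 and 2258 CPM in HY. In LY it was at 447, 852 and 1221 CPM. CALR fell by 0.153 per doubling of casein share (SE 0.0339, adjusted p = 0.00243). CANX, which encodes the membrane-bound lectin calnexin, was at 496, 802 and 1198 CPM in HY and at 337, 700 and 935 CPM in LY. CANX had a slope of -0.0545 (SE 0.0390) that did not pass the test (adjusted p = 0.366). PDIA3, the disulfide isomerase that works with both lectins, was at 444, 801 and 1194 CPM in HY and at 526, 732 and 890 CPM in LY. Its slope of -0.0748 (SE 0.0316) had an unadjusted p of 0.0258 and an adjusted p of 0.0970. The 2 lectins were compared directly through the ratio of their CPM in each cow, which was lowest in HY 3075 (0.697), had a median of 1.15 and was highest in LY 7598 (2.46). The log2 ratio decreased with log2 casein share. Pearson's r was -0.573 (permutation p = 0.00668) and Spearman's rho -0.513 (permutation p = 0.018), and no other ratio was tested. The r was -0.454 without the 2 cows farthest from the median share and -0.533 within the 16 cows of the lower mapping set. Without the 4 cows under 1% casein, r was -0.127 (permutation p = 0.632), so the relation was not detected in the other cows. Those were fewer cows over a narrower range of shares, and the part of this in the lower r was not tested. With casein share in percent in place of its log2 value r was -0.307 (permutation p = 0.175).

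The other 2 disulfide isomerases were lower at higher casein share. PDIA4, a disulfide isomerase found in complexes with HSPA5, was at 50.9, 174 and 433 CPM in HY and at 45.8, 137 and 230 CPM in LY. It fell by 0.182 per doubling of casein share (SE 0.0381, adjusted p = 0.00145), the steepest slope of the 10. In the 4 cows under 1% casein PDIA4 was at 303, 433, 175 and 221 CPM, and in the 2 cows with the most casein at 50.9 and 174 CPM. HY 3262, with the most casein of all cows, therefore lay at the level of LY 7643, which had almost none. PDIA6, a disulfide isomerase that also acts on the UPR sensors, was at 265, 368 and 583 CPM in HY and at 223, 290 and 385 CPM in LY. It fell by 0.0794 (SE 0.0274, adjusted p = 0.0420). The log2 SD of PDIA6 over the cows was 0.351, at percentile 6.52 of the 7146 genes with 10 or more counts in all cows, while that of PDIA4 was 0.748, at percentile 69.5.

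HERPUD1, a membrane protein of the ER-associated degradation complex, was at 84.9, 214 and 354 CPM in HY and at 117, 149 and 235 CPM in LY. It fell by 0.129 per doubling of casein share (SE 0.0312, adjusted p = 0.00486). HY 3014 did not follow the others, with 296 CPM at a casein share of 12.2%. XBP1, the transcription factor of the UPR, had 25 to 331 counts per cow, far fewer than the chaperones. It was at 6.94, 9.02 and 14.7 CPM in HY and at 2.86, 7.92 and 14.6 CPM in LY. Its slope of -0.104 (SE 0.0398) had an unadjusted p of 0.0149 and an adjusted p of 0.0661. Gene counts do not separate the spliced form of XBP1, which encodes the active factor, from the unspliced form. Hence 7 of the 10 genes passed at an unadjusted p under 0.05, against 32% of all genes. In the fit limited to the 7146 better counted genes, 6 of the 10 did, against 2743 of the 7146.

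Several cows carried the highest or lowest values of many genes. HY 2814 had the highest level of 6 of the 10 genes (CALR, PDIA3, PDIA4, PDIA6, HERPUD1 and XBP1), at a casein share of 0.141%. LY 2893 and HY 3280 each had the lowest level of 3 genes. With single cows left out, the count of members that fell ranged from 3 to 6. The count of members was 3 without HY 2814, without HY 3235, without HY 3262, without HY 3280 or without LY 3369. It was 6 without HY 3014, when XBP1 was added (adjusted p = 0.0487). PDIA4, CALR and HERPUD1 passed in all 21 of these fits, with adjusted p of at most 0.0318. HSPA5 lost the call in 6 of them and PDIA6 in 12. Without both HY 3262 and HY 3280 the count was 4, and HSPA5 did not pass (adjusted p = 0.0615). In that fit 1432 of 12323 genes fell and 1196 rose.

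**Figure D2:**
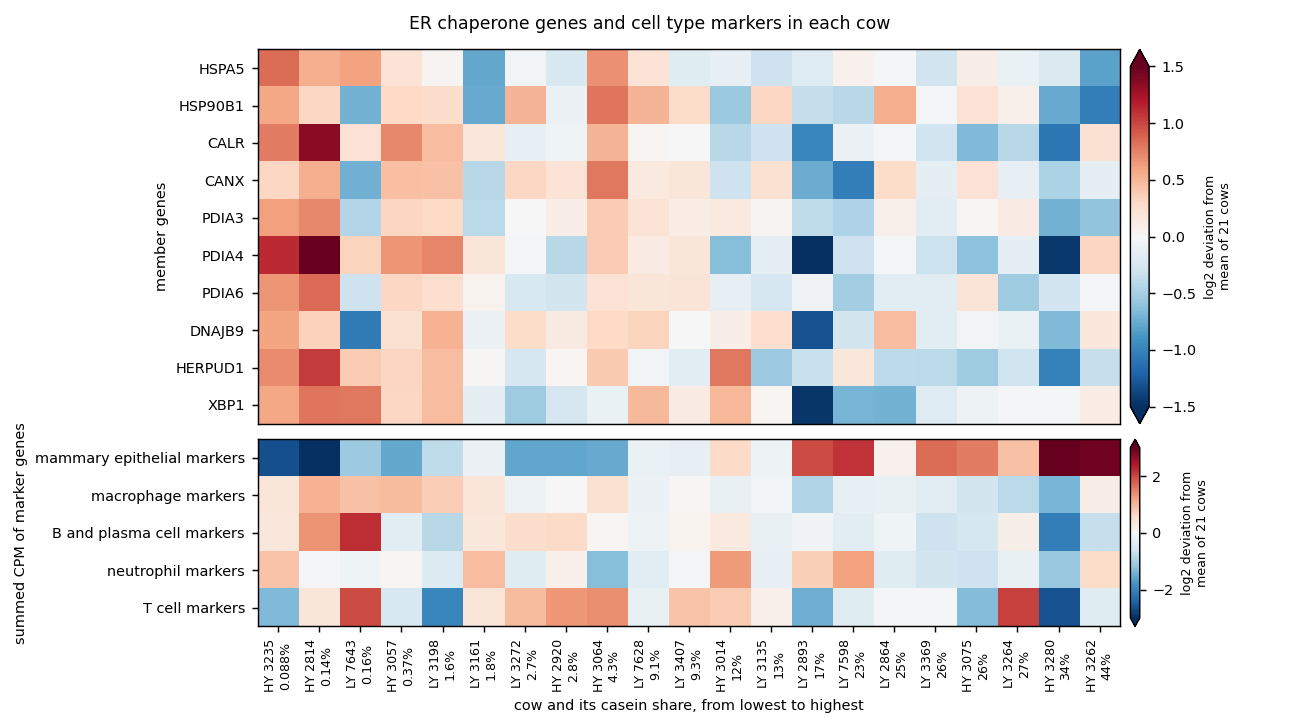
Each column is a cow, ordered from the lowest to the highest casein share, which is printed under its name. The upper rows show the log2 deviation of each of the 10 genes from its mean over the 21 cows, and the lower rows show the same for the summed CPM of marker genes of 5 cell types. Red cells of the chaperones lie mostly at the left, where epithelial markers are low and macrophage markers high. HY 2814 and HY 3280 stand out at opposite ends.

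Marker genes of other cells moved with casein share as well. Of the 12 mammary epithelial markers 6 rose and 0 fell (edgeR, 9 of 12 at an unadjusted p under 0.05), and of the 12 macrophage markers 8 fell and 0 rose (9 of 12 unadjusted). Of the 11 B and plasma cell markers 4 fell, IGJ, MZB1, POU2AF1 and PRDM1, although MZB1 had no count in 11 cows. Without HY 2814 only PRDM1 of these 4 passed, and the slopes were 0.0521 for IGJ, -0.102 for MZB1 (adjusted p = 0.778) and -0.0784 for POU2AF1 (adjusted p = 0.833). PRDM1 was lost without LY 7643 (adjusted p = 0.225). The count of macrophage markers that fell was 5 without HY 2814. Of the 8 neutrophil markers 1 rose, LTF, which epithelial cells also make, and of the 11 T cell markers 0 passed either test. Of the 4 red blood cell markers 1 rose, ALAS2, with no count in 17 cows, and 0 rose without LY 3264. The summed macrophage markers were at 5988, 9705, 8658 and 9063 CPM in the 4 cows under 1% casein, and at 1775 and 5375 CPM in HY 3280 and HY 3262. With this sum as a further covariate, 0 of the 10 genes fell (1 at an unadjusted p under 0.05) and 8 slopes were negative, while the genes called overall went from 2473 to 393. The slope of CALR became -0.0318 (adjusted p = 0.820) and that of PDIA4 -0.0453 (adjusted p = 0.762), whereas that of HSPA5 was -0.115 (adjusted p = 0.288). With the summed B and plasma cell markers as the covariate, CALR and PDIA4 still fell (adjusted p = 0.0404 and 0.0322) and the other 8 did not pass. In bulk samples, fewer cells of a type and less RNA per cell cannot be told apart.

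**Figure D3:**
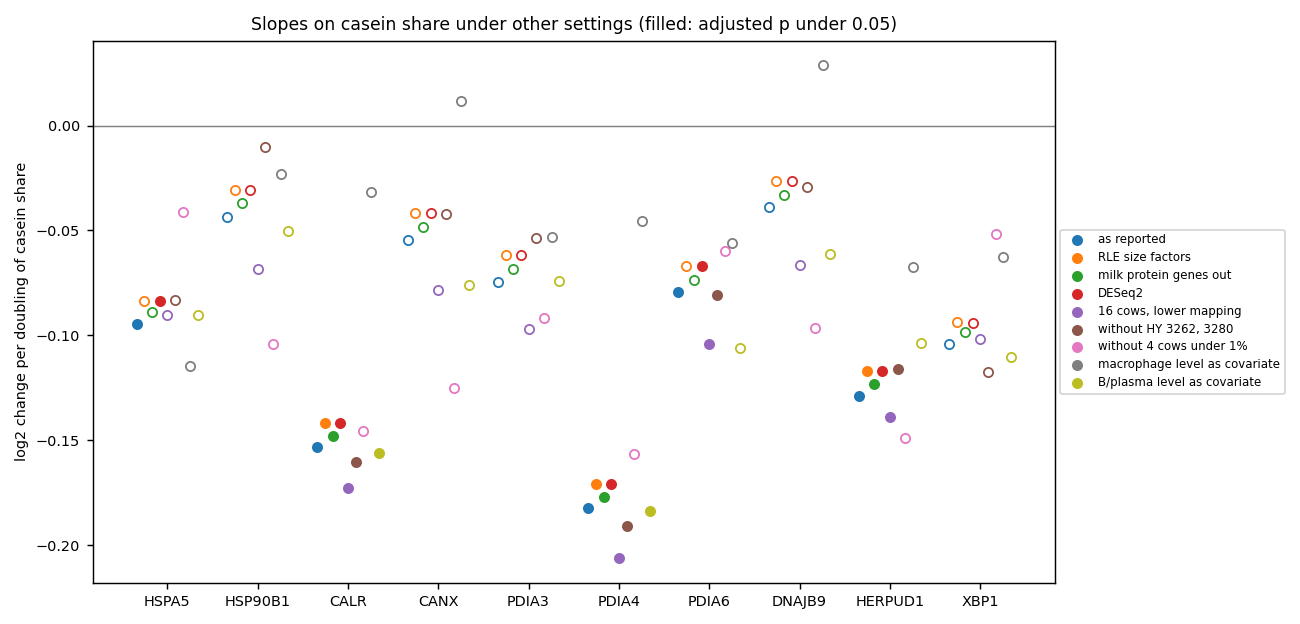
Slope of each gene on casein share (y axis, log2 change per doubling) as reported and under 8 other settings, in colours. Filled points have an adjusted p under 0.05. PDIA4 and CALR stay filled under 7 of the 9 settings and are open without the 4 cows under 1% casein and with the macrophage marker level as a covariate, which moved CALR from -0.15 to -0.03. The fit on linear percent has another unit and is not drawn, and it also ended both calls (adjusted p = 0.0559 for CALR and 0.0561 for PDIA4).

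The fall of the chaperones without the 4 casein-poor cows was also examined. In the other 17 cows all 10 slopes stayed negative, but 0 passed (1 at an unadjusted p under 0.05). Their casein shares ran only from 1.64% (LY 3198) to 44.2% (HY 3262). A lost call there does not separate a weaker relation from a narrower range with fewer cows. PDIA4 had a slope of -0.157 (adjusted p = 0.277), CALR of -0.146 (adjusted p = 0.240) and HERPUD1 of -0.149 (adjusted p = 0.255), while that of HSPA5 was -0.0413 (adjusted p = 0.788). In these 17 cows 663 genes rose and 94 fell, so that 12.4% of the called genes fell, against 48.4% in all 21.

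The mapping rates listed by the study split the cows into a set of 16 and a higher set of 5. Within the 16 cows of the lower set 4 of the genes fell (CALR, PDIA4, PDIA6 and HERPUD1), and HSPA5 had a slope of -0.0903 (adjusted p = 0.142). In that fit 403 of 12117 genes fell and 809 rose. The set of 5 was not fitted on its own. Casein share itself showed no detectable relation with lactation period. Pearson's r was -0.0893 (permutation p = 0.7) and Spearman's rho -0.105 (permutation p = 0.647). The same held for milk yield, with r = -0.281 (permutation p = 0.219) and rho = -0.197 (permutation p = 0.388). Within the lower set these r were 0.00523 and -0.356. Without the 2 cows farthest from the median casein share they were -0.331 and -0.182. They were 2 of 5 such relations, with adjusted p of 0.875 and 0.548 for r and of 0.809 and 0.647 for rho. The TMM factor tended downward with casein share, with r = -0.419 (permutation p = 0.0593, adjusted p = 0.297) and rho = -0.527 (permutation p = 0.0156, adjusted p = 0.0781). Its r was -0.493 without the 2 farthest cows and -0.509 in the lower set, and its part in the slopes was not tested beyond the other size factors above.

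The relation with casein share was then compared between HY and LY. Fitted within the groups, the slope of PDIA4 was -0.208 in HY (SE 0.0506) and -0.122 in LY (SE 0.0706). That of CALR was -0.173 (SE 0.0451) and -0.0957 (SE 0.0603). HERPUD1 was at -0.135 in HY (SE 0.0425) and -0.0981 in LY (SE 0.0532), and HSPA5 at -0.108 (SE 0.0428) and -0.0631 (SE 0.0520). PDIA6 was at -0.0902 in HY (SE 0.0347) and -0.0264 in LY (SE 0.0498). XBP1 alone fell more steeply in LY, at -0.151 (SE 0.0674), than in HY, at -0.0686 (SE 0.0523). For 4 genes, HSP90B1, CANX, PDIA3 and DNAJB9, the slope was below 0 in HY and above 0 in LY. The widest gap was that of HSP90B1, at -0.112 in HY (SE 0.0535) and 0.0781 in LY (SE 0.0743). In the test of the difference of slopes 0 of the 10 genes passed, as did 0% of all genes. PDIA3 had the lowest unadjusted p of 0.0462 (difference HY minus LY -0.142, adjusted p = 0.771) and was the only 1 of the 10 under 0.05, against 6.46% of all genes. With other size factors 0 of the 10 were under 0.05. Of the 4 cows under 1% casein 3 belonged to HY, and without the fourth, LY 7643, the difference of slopes was 0.0182 for CANX, 0.0200 for DNAJB9 and 0.00293 for PDIA6.

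Levels of the 10 genes varied together. Over the 21 cows the 45 pairwise correlations of log2 levels were all above 0, with a median Pearson r of 0.57, against 0.00295 over all pairs of those 7146 genes. These are descriptions, and the points share libraries, depth and scaling. CALR and PDIA4 were the closest pair (r = 0.964), and their r was 0.925 after the casein slope was removed from both. HSP90B1, CANX, PDIA3 and DNAJB9 were also close to each other, with r between 0.614 (HSP90B1 and DNAJB9) and 0.807 (HSP90B1 and PDIA3). The lowest r was that of HSP90B1 with XBP1 (0.0587). With the casein slope removed, the median r of the 45 pairs was 0.415 and 44 stayed above 0. Relative to the mean of the 10 genes in each cow, the slopes on casein share ran from -0.0943 (SE 0.0279) for PDIA4 to 0.0632 (SE 0.0229) for DNAJB9. Such relative slopes sum to 0 by construction, so some must lie above 0. The slope of DNAJB9 itself was -0.0387.

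Likeness to HSPA5 was ranked over the 7145 other genes that reached 10 counts in all cows, by Pearson r of log2 levels over the 21 cows. The 10 genes outside the list with the highest r were HSP90AB1 (0.715), SRXN1 (0.69), JDP2 (0.685), DNMBP (0.679), SYK (0.679), KLF11 (0.667), PACSIN2 (0.662), BTBD9 (0.661), EYA3 (0.658) and PTMA (0.658). HSP90AB1, a cytosolic Hsp90, headed the ranking. Among the ER genes PDIA3 came first at rank 36 (r = 0.613), then HERPUD1 at 56, HSP90B1 at 93, CALR at 271, PDIA4 at 362, PDIA6 at 403, XBP1 at 707, CANX at 1143 and DNAJB9 at 2733. In this measure several genes outside the list ranked above the ER partners of HSPA5. They were picked as the highest of 7145 genes over 21 cows, and the gap in r was not tested.

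The wider pathway was read from lists of related genes. Of 10 tested UPR sensors and transcription factors 1 fell with casein share and 0 rose (edgeR, 4 of 10 at an unadjusted p under 0.05), near the shares of all genes, of which 9.71% fell and 32% were under 0.05 unadjusted. The count was 0 without HY 3235 and 2 without HY 3262. The one that fell was PPP1R15A, which restarts translation late in the stress response, with a slope of -0.239 (SE 0.0701, adjusted p = 0.0181), and it did not pass without HY 3235 or without LY 7643. ATF3, a stress-induced factor, had a slope of -0.0945 (adjusted p = 0.0844). NFE2L1, a membrane-bound factor, was at -0.0587 (adjusted p = 0.0953), and MBTPS1, one of the proteases that release ATF6, at -0.0678 (adjusted p = 0.154). The median slope of this list was -0.0553.

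Of 36 other ER folding factors 5 fell (CRELD2, HYOU1, P4HB, GANAB and SDF2) and 2 rose (FKBP14 and SEC63). Over all genes 9.71% fell, 10.3% rose and 20.1% were called, so the list lay near this background. Without HY 2814 the count that fell was 2. The count that rose was 1 in most fits that left out 1 cow, and FKBP14 passed in all 21. CRELD2, a folding factor of the stress response, had a slope of -0.219 (SE 0.0406, adjusted p = 0.000431). HYOU1, which exchanges the nucleotide of HSPA5, was at -0.186 (SE 0.0355, adjusted p = 0.000600), close to PDIA4. P4HB, the founding disulfide isomerase, was at -0.127 (SE 0.0373, adjusted p = 0.0182) and was lost without HY 2814 (adjusted p = 0.0808). FKBP14, a prolyl isomerase, rose by 0.276 (SE 0.0663, adjusted p = 0.00471). The median slope of the list was -0.0152.

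Of 22 genes of ER-associated degradation 6 fell (NPLOC4, VCP, DERL1, OS9, SYVN1 and HM13) and 1 rose (ERLEC1), with a median slope of -0.0520, against 9.71% lower and 10.3% higher over all genes. The count that fell was 1 without HY 2814, 3 without HY 3280 or without LY 7643, and 8 without HY 3014. The count that rose was 2 without HY 3014, HY 3235, HY 3262 or LY 7598. NPLOC4 (-0.122, adjusted p = 0.00223) and VCP (-0.105, adjusted p = 0.00678) belong to the machine that pulls proteins out of the membrane, and VCP was lost without HY 2814 (adjusted p = 0.0515). DERL1, a channel component, was at -0.0799 (adjusted p = 0.0203, lost in 5 of the 21 fits that left out 1 cow) and ERLEC1, a lectin, at 0.147 (adjusted p = 0.00433). Of 35 cytosolic and mitochondrial chaperones 3 rose (DNAJA2, ST13 and PTGES3) and 3 fell (CDC37, TRAP1 and CCT7), with a median slope of 0.00458, again near the shares over all genes. The count that rose was 1 without HY 3075 or without LY 7643 and 8 without HY 3262. Of the 35, 16 had an unadjusted p under 0.05, as had 11 of the 22 degradation genes and 10 of the 36 other folding factors. Over all genes 32% did. DNAJA2, a cytosolic Hsp40, rose by 0.130 (adjusted p = 0.00110), CDC37, a kinase co-chaperone, fell by 0.123 (adjusted p = 0.00497), TRAP1, the mitochondrial Hsp90, fell by 0.113 (adjusted p = 0.0158) and ST13, an Hsp70 partner, rose by 0.0855 (adjusted p = 0.0370). TRAP1 was lost without LY 7643 (adjusted p = 0.0777) and ST13 in 3 of the 21 fits that left out 1 cow. Without the 4 cows under 1% casein, 0 genes of these 4 lists fell and 1 rose, in ER-associated degradation. With the macrophage marker level as a covariate 0 fell and 0 rose.

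**Figure D4:**
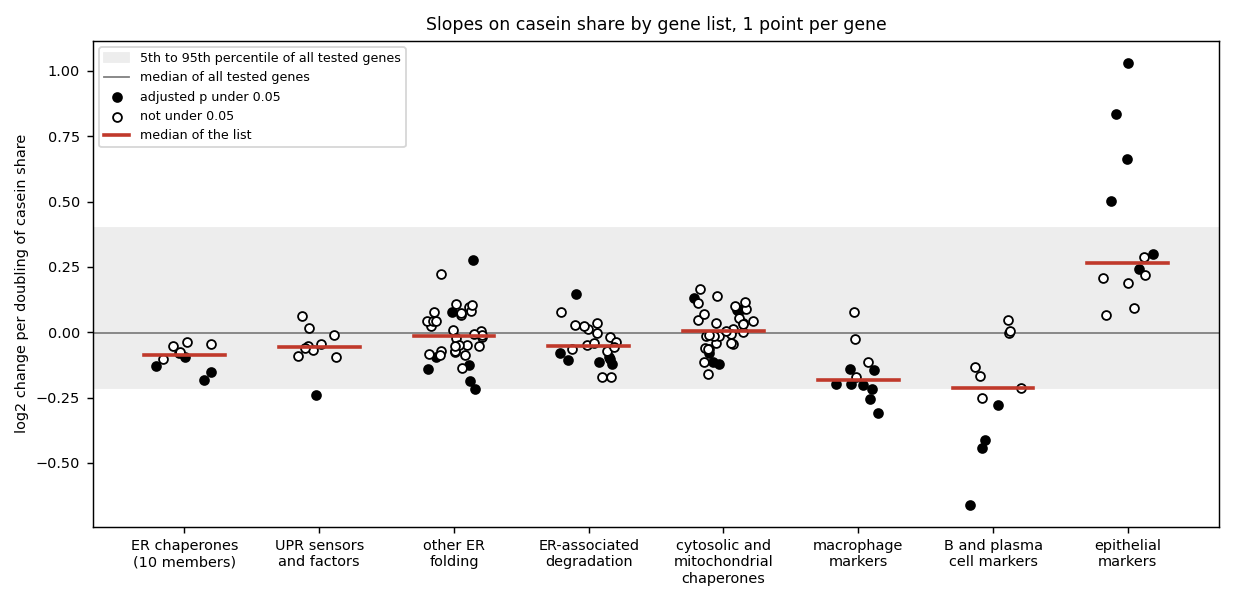
Slopes on casein share (y axis, log2 change per doubling) for the genes of 8 lists, with 1 point per gene. Filled points passed at an adjusted p under 0.05, red bars are list medians, the grey line is the median of all 12333 genes and the grey band holds their 5th to 95th percentile. All 10 ER chaperones lie below 0 and inside the band, as do most genes of the other ER lists, while macrophage and B or plasma cell markers reach lower values.

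Lactation period was examined next. Of the 10 genes 0 passed the test on days in milk (edgeR), 0 had an unadjusted p under 0.05, and 0 passed with DESeq2. Over all genes 0.0243% were called lower, 0% higher, and 22.3% had an unadjusted p under 0.05. DESeq2 called 920 genes. The 10 slopes, in log2 units per 100 days, ran from -0.162 for PDIA6 (SE 0.110, adjusted p = 0.382) to 0.146 for HSP90B1 (SE 0.149, adjusted p = 0.580). HSPA5 had a slope of 0.113 (95% interval -0.171 to 0.397), CALR of -0.0679 (95% interval -0.412 to 0.277) and PDIA4 of -0.145 (95% interval -0.54 to 0.25). The remaining slopes were -0.0188 for XBP1, 0.0214 for CANX, 0.0274 for PDIA3, 0.106 for DNAJB9 and 0.0494 for HERPUD1, each with an adjusted p of at least 0.641.

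CALR differed between the earliest and the latest cow, which also differed in group and casein share. It was at 2258 CPM in HY 2814 (day 41, casein 0.141%) and at 874 CPM in LY 2864 (day 270, casein 24.7%). LY 3407 (day 52) had 886 CPM and HY 3262 (day 65) 1036 CPM. Without HY 2814 the slopes of CALR and PDIA4 changed sign, to 0.164 and 0.135, and that of XBP1 became 0.0981. The sign of XBP1 also changed with other size factors (0.0175). In the wider lists 0 genes passed in any list (edgeR). At an unadjusted p under 0.05 there were 8 of 36 other folding factors, 7 of 22 degradation genes, 1 of 10 UPR genes and 2 of 35 other chaperones, against 22.3% of all genes.

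The 2 genes with the lowest p of each list in the lactation fit did not pass in edgeR, and their values follow. FKBP2, an ER prolyl isomerase, had a slope of -0.607 per 100 days (adjusted p = 0.0639) and ERP29, an ER folding factor, of -0.516 (adjusted p = 0.0741). DERL2, a degradation channel component, was at -0.451 (adjusted p = 0.0639) and VIMP, its partner, at -0.342 (adjusted p = 0.0791). BAG1, an Hsp70 nucleotide exchange factor, was at -0.515 (adjusted p = 0.0700) and CCT8, a subunit of the cytosolic chaperonin, at -0.380 (adjusted p = 0.161). EIF2AK3, the UPR sensor PERK, was at 0.325 (adjusted p = 0.214) and PPP1R15A at 0.602 (adjusted p = 0.302). FKBP2, ERP29, DERL2, VIMP and BAG1 passed with DESeq2 (adjusted p between 0.0129 and 0.0310). FKBP2, DERL2, BAG1 and ERP29 also passed without LY 3407, the fit in which 428 genes were called in place of 3. The ER chaperones did not pass in that fit.

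For milk yield, the breeding value was regressed on the log2 level of each gene, as in the model of the study. Of the 10 genes 0 were associated at an adjusted p under 0.05, 0 at an unadjusted p under 0.05, and 0 by edgeR. Of all genes 0% passed and 2.49% had an unadjusted p under 0.05. All 10 slopes were positive, against 49.7% of all genes. XBP1 had the lowest unadjusted p of 0.0892, with a slope of 183 units of breeding value per log2 unit (SE 102). HSPA5 had the steepest slope, 224 (SE 134, unadjusted p = 0.111, 95% interval -56.8 to 505). PDIA6 was at 218 (SE 165), PDIA3 at 184 (SE 152), HERPUD1 at 181 (SE 111), CANX at 180 (SE 121), DNAJB9 at 164 (SE 118), CALR at 147 (SE 99.2), PDIA4 at 75.6 (SE 79.0) and HSP90B1 at 20.5 (SE 114). The sign of HSP90B1 turned negative with parity and lactation period as covariates (-10.3) and with casein share as a covariate (-13.3).

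The HY and LY groups were also compared directly. Of the 10 genes 0 differed at an adjusted p under 0.05 (edgeR, 0 at an unadjusted p under 0.05; DESeq2, 0 and 1), and 0% of all genes did, with 4.7% at an unadjusted p under 0.05. The fitted difference was above 0 for all 10 genes, against 52.7% of all genes, but that of HSP90B1 was 0.00277 and turned negative with other size factors (-0.0132). The median difference of the 10 was 0.292 log2 units. The difference HY minus LY was 0.401 for CALR (95% interval -0.147 to 0.949), 0.396 for PDIA4 (95% interval -0.245 to 1.04) and 0.373 for HERPUD1 (95% interval -0.0941 to 0.840). PDIA6 had the lowest unadjusted p of 0.0804, at 0.325 (95% interval -0.0480 to 0.698). The other differences were 0.293 for CANX, 0.291 for XBP1, 0.242 for HSPA5, 0.241 for PDIA3 and 0.168 for DNAJB9, with an adjusted p of 0.999. The ranges of the groups overlapped in every gene.

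The spread between cows was larger in HY for HSPA5, HSP90B1, CALR, PDIA3, PDIA4, PDIA6 and HERPUD1. The log2 SD of CALR was 0.776 in HY and 0.368 in LY, that of HERPUD1 0.678 and 0.320, and that of PDIA3 0.490 and 0.273. CANX, DNAJB9 and XBP1 went the other way, with 0.346 in HY and 0.569 in LY for DNAJB9. The difference of the SDs was not tested. HY held both ends of the casein range, with HY 3235 and 2814 at the low end and HY 3280 and 3262 at the high end. Without HY 3262 and 3280 the differences became 0.571 for HERPUD1, 0.541 for PDIA4, 0.538 for CALR, 0.423 for PDIA6 and 0.420 for PDIA3. Then 4 of the 10 had an unadjusted p under 0.05 (edgeR), as had 710 of all 12323 genes in that fit. Of the 10, 0 had an adjusted p under 0.05, the lowest being 0.845. In the milk yield regression without these 2 cows 4 of the 10 were likewise under 0.05 unadjusted and 0 adjusted, the lowest being 0.679. There 865 of 12323 genes were under 0.05 unadjusted. Summed macrophage markers had a median of 5375 CPM in HY and 4146 CPM in LY, and their part in these differences was not tested.

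**Figure D5:**
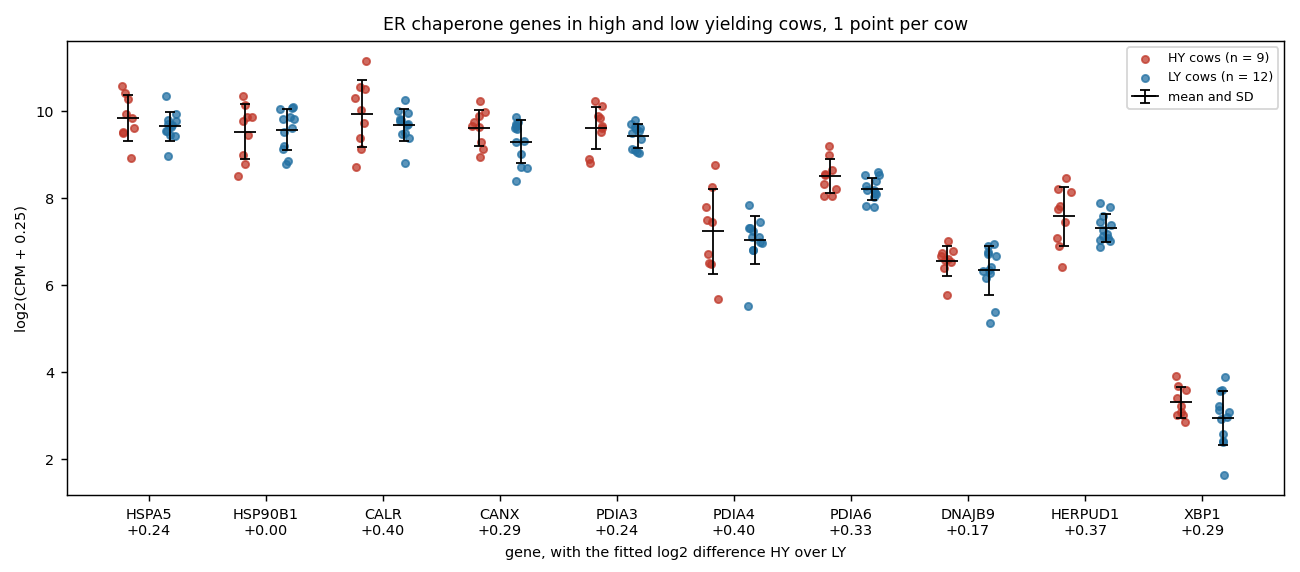
Level of each of the 10 genes as log2(CPM + 0.25) in HY (red, 9 cows) and LY (blue, 12 cows), with 1 point per cow and black bars for the mean and SD. The number under each gene is the fitted log2 difference HY over LY, from +0.00 for HSP90B1 to +0.40 for CALR and PDIA4. The points of the groups overlap for every gene, and CALR spreads more widely in HY.

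The identity of the rows sets a limit for some genes. In a RefSeq annotation of a later assembly, ARS-UCD2.0, PDIA3, PDIA4 and PDIA6 each overlap another coding gene (CATSPER2, LOC100336368 and ATP6V1C2), and CANX overlaps a pseudogene. Whether the libraries kept strand is not given in the sources used here. The overlap was of whole gene spans and not of exons, so whether reads of these neighbours entered the counts was not tested. HSPA5, HSP90B1, CALR, DNAJB9 and HERPUD1 overlap no other gene in that annotation.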

How the data were processed

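The authors deposited whole-number read counts per gene for each cow, without normalization. Adapters were removed with Trimmomatic, reads were mapped to bosTau7 with Bowtie2 within TopHat2, converted with SAMtools and counted with HTSeq. Versions are not given in the sources used here. HTSeq summary rows and a row without a gene name (0.0360% to 0.151% of a cow's counts) were left out, and the 12333 genes counted in 1 or more cows were tested. Casein share, lactation period, group and their interaction were tested with edgeR 4.0.16 (quasi-likelihood, TMM, R 4.3.3) under Benjamini-Hochberg adjustment. Milk yield was regressed on log2(CPM + 0.25) by ordinary regression. DESeq2 1.42.0, RLE size factors, a minimum of 10 counts in every cow, other covariates and sets of cows, and leaving out each cow were alternatives. The joint fit held casein share, lactation period and milk yield together, with group in place of milk yield for HY against LY. Permutation tests were two-sided with 100000 resamples. Casein share is itself made from these counts. Counting intervals were not used. The members, lists and tests were chosen with earlier results of these data known. Named genes were the 10 members, the 4 lowest p of each related list for casein share and the 2 lowest for lactation, and the 10 genes most like HSPA5. Other called list genes and markers were named after their values were seen.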

Additional observations from a re-analysis of the deposited data

Results flagged for a closer look

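DNAJB9 was flagged for a sample far from the others of its group. In HY, cow 3280 had the lowest level (54.2 CPM), and its gap to the nearest cow divided by the range of the 9 HY cows on the log2 scale was 0.4935, just past Dixon's 95% critical value for this number of cows. Among the 9 HY cows the same cow also had the lowest level of CALR, CANX, PDIA3, PDIA4, PDIA6 and HERPUD1. Its levels of CALR, PDIA3 and HERPUD1 were the lowest of all cows in both groups. It had a TMM factor of 0.498 and a casein share of 33.6%. No other of the 10 genes was flagged in HY, and LY was not tested because it held more than 10 cows. About 1 in 20 groups would be flagged by chance.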

How the results depend on the processing

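Casein share called 5 members and 2473 genes. Members called were 3 with RLE size factors and with milk protein genes left out of the totals. They were also 3 in the joint fit with lactation period and milk yield. Their count was 4 with a minimum of 10 counts in every cow and 2 with the B and plasma cell marker level. It was 1 with casein share in linear percent (HERPUD1), and 0 without the 4 cows under 1% casein or with the macrophage marker level. Leaving out each cow gave 3 to 6 members and 1663 to 2758 genes called. Genes called were 1212 in the lower mapping set, 757 without the 4 cows, 393 with the macrophage and 608 with the B and plasma cell level. The settings with marker levels, without the 4 cows and without HY 3262 and 3280 were chosen after seeing the data. The share of lower genes among those called was 48.4%, against 33.3% in the lower set, 38.6% with linear percent, 12.4% without the 4 cows, 14.8% with the macrophage and 25.7% with the B and plasma cell level. Signs turned with the macrophage level for CANX (0.0117), DNAJB9 (0.0287), MBTPS1 (0.00670), CSF1R (0.00973) and APOE (0.0622). CSF1R and APOE are part of the summed macrophage level, so their change follows in part from the covariate itself. Without the 4 cows signs turned for DNMBP (0.0365) and PACSIN2 (0.0124). Leaving out each cow gave -0.0356 to 0.0123 for DNMBP and -0.458 to 0.0521 for IGJ.

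Lactation period called 3 genes, 0 with the count minimum, the mapping set as covariate, the lower set or the joint fit, 1 with parity as covariate, 920 with DESeq2, and 0 to 428 leaving out each cow. XBP1 turned to 0.0175 with RLE, 0.0260 with the count minimum, 0.0147 with DESeq2 and 0.00478 with parity. CANX turned to -0.0202 in the joint fit, and without HY 3262 and 3280 CANX was -0.00554, PDIA3 -0.0326 and HERPUD1 -0.00193. Leaving out each cow gave -0.139 to 0.164 for CALR, -0.215 to 0.135 for PDIA4, -0.0765 to 0.0981 for XBP1, -0.0177 to 0.0958 for CANX, -0.00635 to 0.140 for PDIA3 and -0.00695 to 0.240 for HERPUD1.

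For HY against LY, HSP90B1 turned to -0.0132 with RLE, -0.0466 with the count minimum, -0.0132 with DESeq2, -0.0677 in the joint fit and -0.117 to 0.0799 leaving out each cow, and PDIA4 was -0.00142 in the joint fit. For milk yield, HSP90B1 turned to -10.3 with parity and lactation period, -13.3 with casein share and -49.2 to 56.7 leaving out each cow, and edgeR called 13 genes. For the difference of slopes, leaving out each cow gave -0.120 to 0.0182 for CANX, -0.153 to 0.0200 for DNAJB9 and -0.0809 to 0.00293 for PDIA6, and 0 to 2 genes called. In these 4 comparisons other than casein share, 0 members passed under any setting. The causes were not tested. No paired analysis was possible because the cows carry no shared replicate numbers in the labels. Depth limited XBP1 most, with 25 counts in its lowest cow.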
